A study of Bos taurus with 24 samples.

Results

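ABCG2, carried in the deposited tables as ENSBTAG00000017704, was followed in liver and mammary gland of Holstein cows, a dairy breed, 21 d before expected calving. It is 1 of the 27607 gene IDs in the raw count tables, and it passed the filter on low counts in every fit. The tables give no symbols, and the RefSeq table used for names (ARS-UCD2.0) matched 0 of the IDs, so the pairing of this ID with the name ABCG2 comes from the choice of the gene and was not checked on the files. The data are 24 ribosome-depleted RNA-seq libraries from 13 cow labels, 12 from liver biopsies and 12 from mammary biopsies, and each tissue has 6 libraries from control cows and 6 from phase shift cows. All cows were multiparous, had been dry since 60 d before expected calving and were kept from 35 d before it at 150 lx with 16 h light and 8 h dark per day. The control cycle was constant, whereas the phase shift cycle moved forward by 6 h every 3 d for 2 weeks, with at least 5 shifts before the biopsies. Each treatment had its own partition of 1 barn, and an effect of the partition cannot be told apart from one of the light. Cows are named here by number and treatment, C for control and PS for phase shift. Both tissues were sampled in 11 cows, while 25PS has only a liver library and 21PS only a mammary library.

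ABCG2, also called breast cancer resistance protein, is an ATP-binding cassette transporter of the G subfamily that works as a dimer in the apical membrane of epithelia. In the mammary gland it pumps riboflavin and many drugs and toxins into milk, and it is known to rise in alveolar epithelium from late pregnancy into lactation. In liver it sits in the canalicular membrane of hepatocytes and exports substrates into bile. In the RefSeq table it has 16 listed transcripts, 1 of them curated, and it lies between PPM1K and PKD2, with SPP1, the gene of osteopontin, beyond PKD2. A further 5 annotated genes (an snRNA, a tRNA, a microRNA, a pseudogene and an uncharacterised protein-coding gene) overlap its span there. How the authors' counting treated strand and overlaps is not given here, and reads that fall in ABCG2 and in one of these genes may have been counted for either or for neither.

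Library totals ran from 7.68 M to 26.9 M counts in liver and from 5.05 M to 13.1 M in mammary. ABCG2 held between 725 and 2535 reads in a liver library and between 189 and 4062 in a mammary library, so counting error alone was at most 3.71% of the value in liver and 7.27% in mammary. Levels are given in CPM, the count per M counts of the library total, with exact 95% binomial intervals that cover counting error only. The first principal component was taken from log2 CPM of filtered genes on library sizes scaled by the trimmed mean, a scaling described below. It set the liver library of 22PS apart, at 94.9 where the other 11 lay between -9.77 and -7.06. In mammary it set apart 21PS at 78.9 and 26C at 121, where the other 10 lay between -37.1 and -4.13. Markers of liver, of mammary epithelium or of other cell types could not be matched to IDs, so the labelled tissues were not checked against markers. In these bulk biopsies, fewer cells of a type and less RNA per cell cannot be told apart.

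Liver ABCG2 varied little between cows. In control cows it ran from 92.7 CPM in 25C through a median of 108 to 120 CPM in 19C, with 95.6 in 26C, 106 in 21C, 109 in 23C and 110 in 24C. In phase shift cows it ran from 81.1 CPM in 22PS through a median of 101 to 125 CPM in 19PS, with 93.4 in 25PS, 94.1 in 26PS, 108 in 23PS and 110 in 24PS. The highest liver library held 1.55 times the level of the lowest, and 1.35 times without 22PS, the lowest value and the library that stands apart. The treatments overlapped, as they did for nearly all liver genes: 0.349% of the 13752 genes tested had groups that did not overlap.

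Mammary ABCG2 differed widely between cows in both treatments. In control cows it ran from 45.9 CPM in 23C (95% interval 40.4 to 52.0) through a median of 102 to 298 CPM in 25C (284 to 312). In phase shift cows it ran from 32.0 CPM in 24PS (27.6 to 36.9) through a median midway between 42.5 and 57.6 to 386 CPM in 23PS (374 to 398). The highest mammary library held 12.1 times the level of the lowest, and 9.30 times without 23PS. Between the extremes, 24C had 148 CPM and 21C 139 CPM. With 25C and 23PS they were the 4 mammary libraries above every liver library. The other 8 lay below every liver library: 61.8 CPM in 26C and 64.3 in 19C beside 23C among the control cows, and 33.3 in 26PS, 42.5 in 19PS, 57.6 in 21PS and 66.8 in 22PS beside 24PS among the phase shift cows. So on library totals 3 of 6 control cows and 1 of 6 phase shift cows had a mammary level above the liver range, a split seen after the fact. With the trimmed-mean scaling described below, liver ran from 126 to 181 CPM in the cows with both tissues. On that scale 25C (223) and 23PS (297) stayed above the liver range, whereas 21C (93.3) and 24C (104) fell below it.

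**Figure D1:**
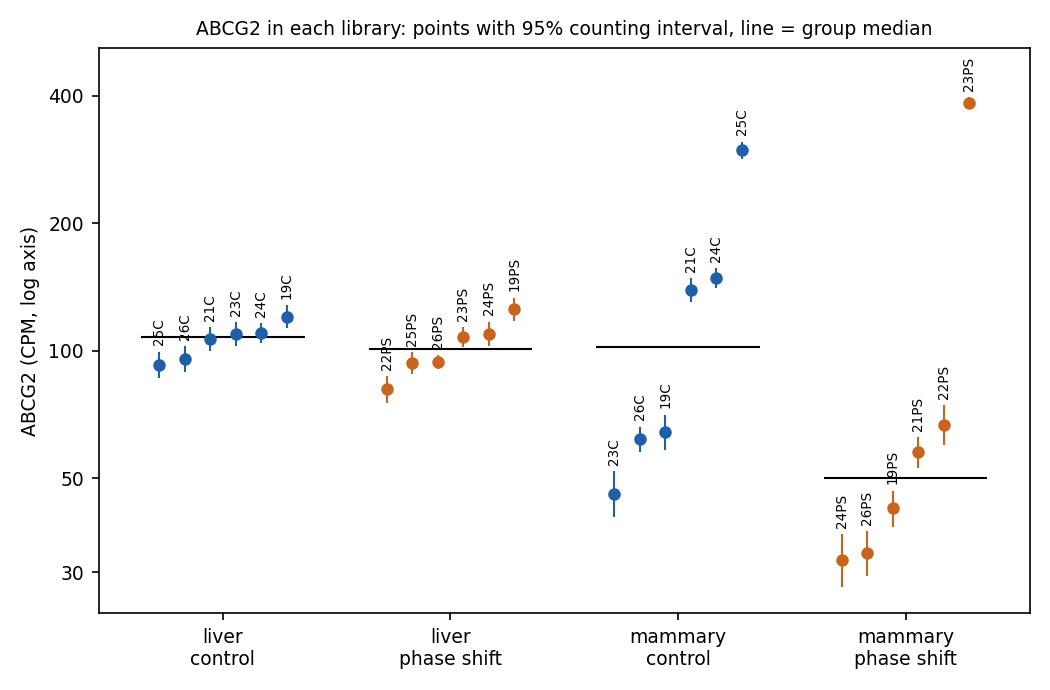
ABCG2 in CPM (log axis) in each library of the 4 groups, with exact 95% counting intervals and a line at each group median. Liver libraries lie between 81.1 and 125 CPM, while mammary libraries spread from 32.0 to 386 CPM.

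Ordered by mean, the groups were mammary control at 126 CPM (SD 94.4, n = 6), liver control at 106 (SD 10.2, n = 6), mammary phase shift at 103 (SD 139, n = 6) and liver phase shift at 102 (SD 15.6, n = 6). No neighbours in this order differed by more than their spread. By median the order changed to liver control, mammary control, liver phase shift and mammary phase shift, with 23PS and 25C raising the mammary means.

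The standard deviation (SD) of log2 CPM over the 12 libraries was 0.18 in liver and 1.19 in mammary. Among the genes with a mean of at least 10 CPM, the median SD was 0.23 over 8296 genes in liver and 0.38 over 10768 genes in mammary. An SD at least that of ABCG2 was seen in 74.2% of these genes in liver and in 3.02% in mammary. On the regularized log2 values that the authors deposited, the shares were 76.8% in liver and 1.85% in mammary. Without 22PS the liver SD was 0.15, and 67.7% of genes reached it. Without 21PS and 26C the mammary SD was 1.29, and 0.873% of genes reached it. Without 23PS it was 0.996, with 5.56% of genes at or above it. The difference in spread between tissues was described and not tested.

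**Figure D2:**
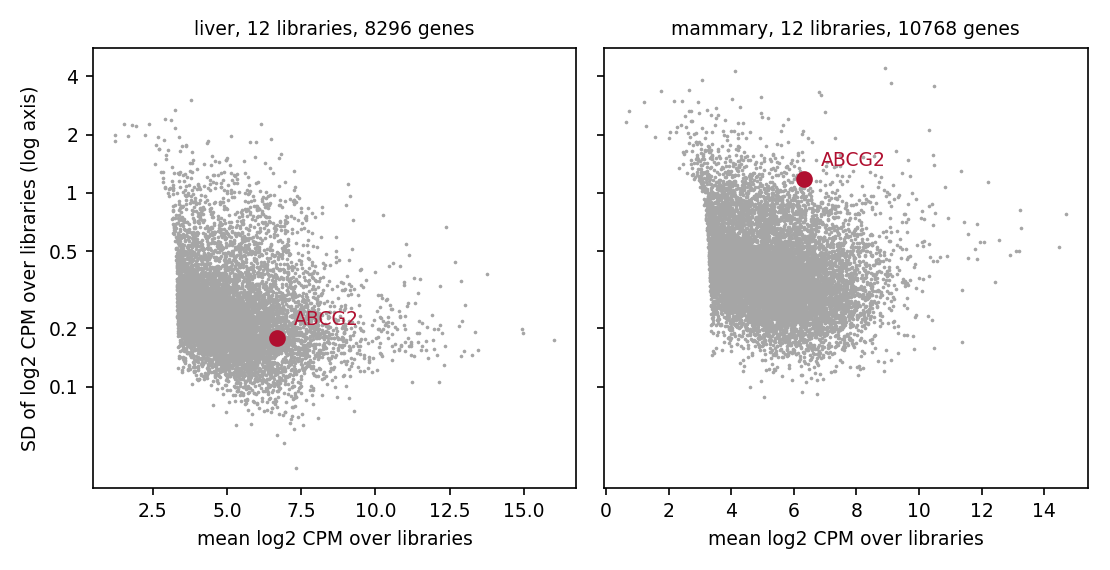
SD of log2 CPM over 12 libraries (log axis) against mean log2 CPM, 1 point per gene with a mean of at least 10 CPM, in liver and in mammary. ABCG2 (red) has an SD of 0.18 in liver, below the median of 0.23, and of 1.19 in mammary, where the median is 0.38.

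The first comparison asked whether ABCG2 differs between mammary and liver of the same cow. As a share of all counts it was lower in mammary in 7 of 11 cows and higher in 4. The mammary level ranged from 0.292 times the liver level in 24PS (32.0 against 110 CPM) to 3.58 times in 23PS (386 against 108 CPM). Next to 24PS, the ratio was 0.339 in 19PS, 0.353 in 26PS, 0.420 in 23C and 0.534 in 19C. It was 0.824 in 22PS, 1.31 in 21C, 1.35 in 24C and 3.21 in 25C. The median cow, 26C, had 61.8 CPM in mammary and 95.6 CPM in liver. The 4 cows with more in mammary were 23PS, 25C, 24C and 21C. Of the control cows 3 of 6 were lower in mammary, and of the phase shift cows 4 of 5. The mean log2 difference of CPM was -0.32 (SD 1.27, n = 11, exact two-sided sign permutation p = 0.407 over 2048 arrangements). Of all 16818 genes tested, 61.9% went the same way in all 11 cows on CPM, and ABCG2 was not among them.

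Relative to the other genes, ABCG2 was lower in mammary. With trimmed-mean (TMM) scaling, which sets the bulk of genes equal between libraries, and the cow as a block, the edgeR log2 difference was -1.39 (SE 0.38, 95% CI -2.22 to -0.57), which is 0.380 times the liver level (adjusted p = 0.00473). On this scale it was lower in mammary in 9 of 11 cows, the exceptions being 25C and 23PS. Scaled to library totals alone, the edgeR log2 difference was -0.35 (SE 0.34, adjusted p = 0.337). The scalings differ because the median of all 16818 genes tested moved to 1.11 on library totals, against 0.059 with TMM. Measured from that median, the log2 difference of ABCG2 was -1.45 with TMM and -1.46 on library totals. A change of scaling shifts all genes by nearly the same amount, so this agreement was fixed in advance and is no separate support. Calls were common in this comparison: 71.5% of the genes tested passed an adjusted p of 0.05 in edgeR, 34.7% of them being lower in mammary and 36.8% higher, as shares of all tested, and on library totals 88.4% passed, 15% lower and 73.4% higher. A log2 difference at least as far from 0 as that of ABCG2 was seen in 33.7% of genes with TMM and in 90.2% on library totals.

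The call was lost in edgeR without the cow as a block. Over the same 22 libraries with no replicate block, an alternative chosen after seeing the data, the log2 difference was -0.79 (SE 0.41, adjusted p = 0.0889), and over all 24 libraries it was -0.80 (SE 0.38, adjusted p = 0.0621). With the cow as a random replicate block in limma-voom over 24 libraries it was -1.34 (adjusted p = 0.000885). Leaving out the cows 22PS and 26C, whose liver or mammary library stands apart, gave -1.39 (edgeR adjusted p = 0.0320).

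**Figure D3:**
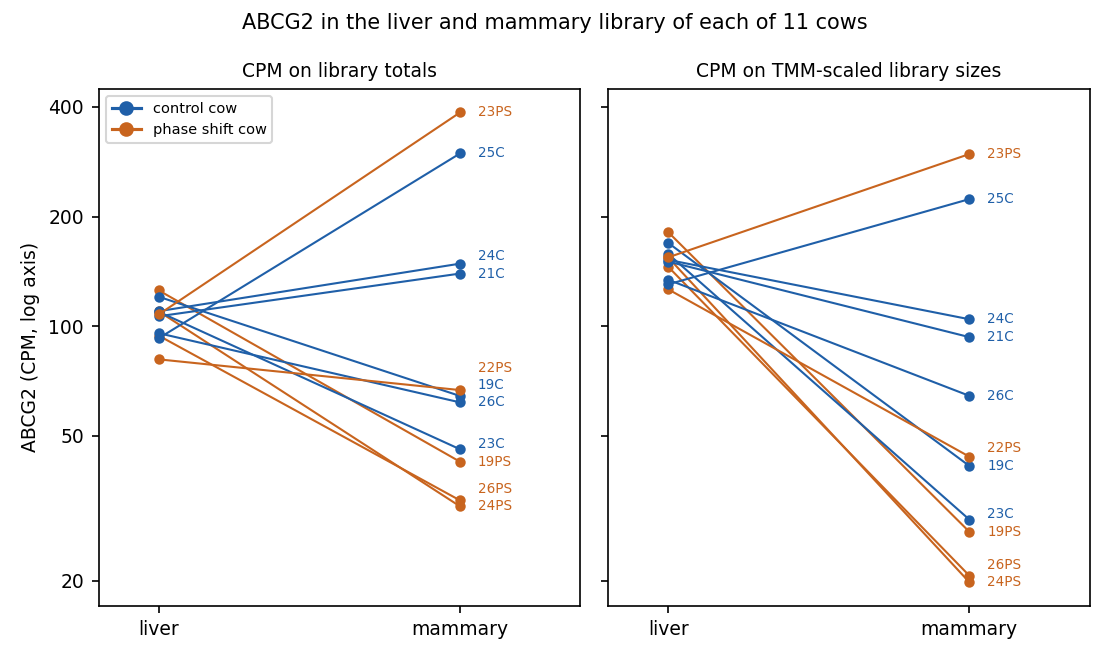
ABCG2 in CPM (log axis) in the liver and mammary library of each of the 11 cows with both tissues, on library totals (left) and on TMM-scaled library sizes (right); each line is 1 cow. Lines fall from liver to mammary in 7 of 11 cows on the left and in 9 of 11 on the right, and 23PS and 25C rise in both.

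No relation between a cow's liver level and its mammary level was detected. Over the 11 cows, Pearson's r of log2 CPM was -0.11 (permutation p = 0.743) and Spearman's rho was -0.25 (permutation p = 0.469), and adjusted over 3 relations these p-values were 0.753 and 0.703. Without 19PS and 22PS, the cows farthest from the median liver level, r was -0.089. Within the 6 control cows r was -0.47 (exact permutation p = 0.340), and no value is given for the 5 phase shift cows, since correlations were computed over at least 6 cows. The other relations were between ABCG2 and the library total, a check of depth. There r was 0.10 in mammary (rho 0.11, permutation p = 0.753 and 0.732) and -0.26 in liver (rho -0.43, permutation p = 0.411 and 0.168), with adjusted p of 0.753 and 0.732 in mammary and 0.753 and 0.504 in liver. Without 23PS and 26C the mammary r was -0.13, and without 23PS and 26PS the liver r was -0.23.

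The second comparison asked whether shifts of the light cycle changed ABCG2 in liver, and no change was detected. Phase shift cows averaged 102 CPM (SD 15.6, n = 6), against 106 CPM for control cows (SD 10.2, n = 6). The edgeR log2 fold change, phase shift minus control, was 0.020 (SE 0.093, 95% CI -0.18 to 0.22, adjusted p = 0.975). The interval in fold is 0.883 to 1.16 at 95%, and it holds for this fit only. Scaled to library totals alone, the edgeR interval was 0.821 to 1.13. The exact two-sided permutation p of log2 CPM was 0.597 over all assignments of 6 cows to each treatment, for which the smallest possible is 0.00216. A log2 fold change at least as far from 0 was seen in 91% of the liver genes tested. The edgeR test called 0% of 13752 genes, with 813 at unadjusted p under 0.05, while DESeq2 called 13 and limma-voom 0, none of them ABCG2.

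The third comparison, the same in mammary, gave no detected change but a far wider interval. Phase shift cows averaged 103 CPM (SD 139, n = 6), against 126 CPM for control cows (SD 94.4, n = 6), and the groups overlapped. The edgeR log2 fold change was -0.28 (SE 0.71, 95% CI -1.82 to 1.26, adjusted p = 0.983), an interval of 0.283-fold to 2.39-fold. A fold change of that size or larger was seen in 28.6% of the genes tested. Other fits put it further below 0: -0.72 in limma-voom (adjusted p = 0.986, 4.41% of genes as large) and -0.49 in limma on the regularized log values (adjusted p = 0.997, 1.22%). With the shared cow number as a replicate block, edgeR gave -0.67 (adjusted p = 1, 5.07%). The exact two-sided permutation p of log2 CPM was 0.346. The edgeR test called 0% of 15547 genes, with 739 at unadjusted p under 0.05, and DESeq2 and limma-voom called 0.

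The mammary value rested on 23PS and 25C. Apart from 23PS, the phase shift cows lay between 32.0 and 66.8 CPM, with a mean of 46.4 (SD 15.3, n = 5). Without 23PS the edgeR log2 fold change was -1.50 (SE 0.49, 95% CI -2.58 to -0.41), with an unadjusted p of 0.0110 and an adjusted p of 0.613, and the exact permutation p of log2 CPM was 0.0433. Without 25C, the highest control cow, it was 0.19 (SE 0.71, adjusted p = 0.999), so its sign turned. Each of these 2 libraries is the highest value of its group, so leaving it out moves the difference by the choice itself. The permutation was not run without 25C, and the p-values without 23PS are not read as a change. Among mammary genes, 0.167% had treatment groups that did not overlap with all 12 libraries, and ABCG2 was not one of them.

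The fourth comparison asked whether the response to phase shifts differed between the tissues, and no difference was detected. In the paired edgeR fit over 11 cows the response in mammary minus that in liver was -0.93 on the log2 scale (SE 0.74, 95% CI -2.53 to 0.68, adjusted p = 0.933). The exact permutation p of the cow differences was 0.448 over 462 assignments. With no replicate block the edgeR value was -0.21 over the same 22 libraries (SE 0.82, adjusted p = 0.976) and -0.28 over all 24 (SE 0.75, adjusted p = 0.973). Without 23PS the paired edgeR value was -1.52 (SE 0.55, unadjusted p = 0.0179, adjusted p = 0.835), and the exact permutation p of the cow differences was 0.0905. The mammary level of 23PS is the highest, so leaving it out moves the difference by the choice itself. The edgeR test called 0% of 16818 genes for this difference, with 694 at unadjusted p under 0.05, and DESeq2 and limma-voom called 0. A difference at least as far from 0 as that of ABCG2 was seen in 10% of genes.

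**Figure D4:**
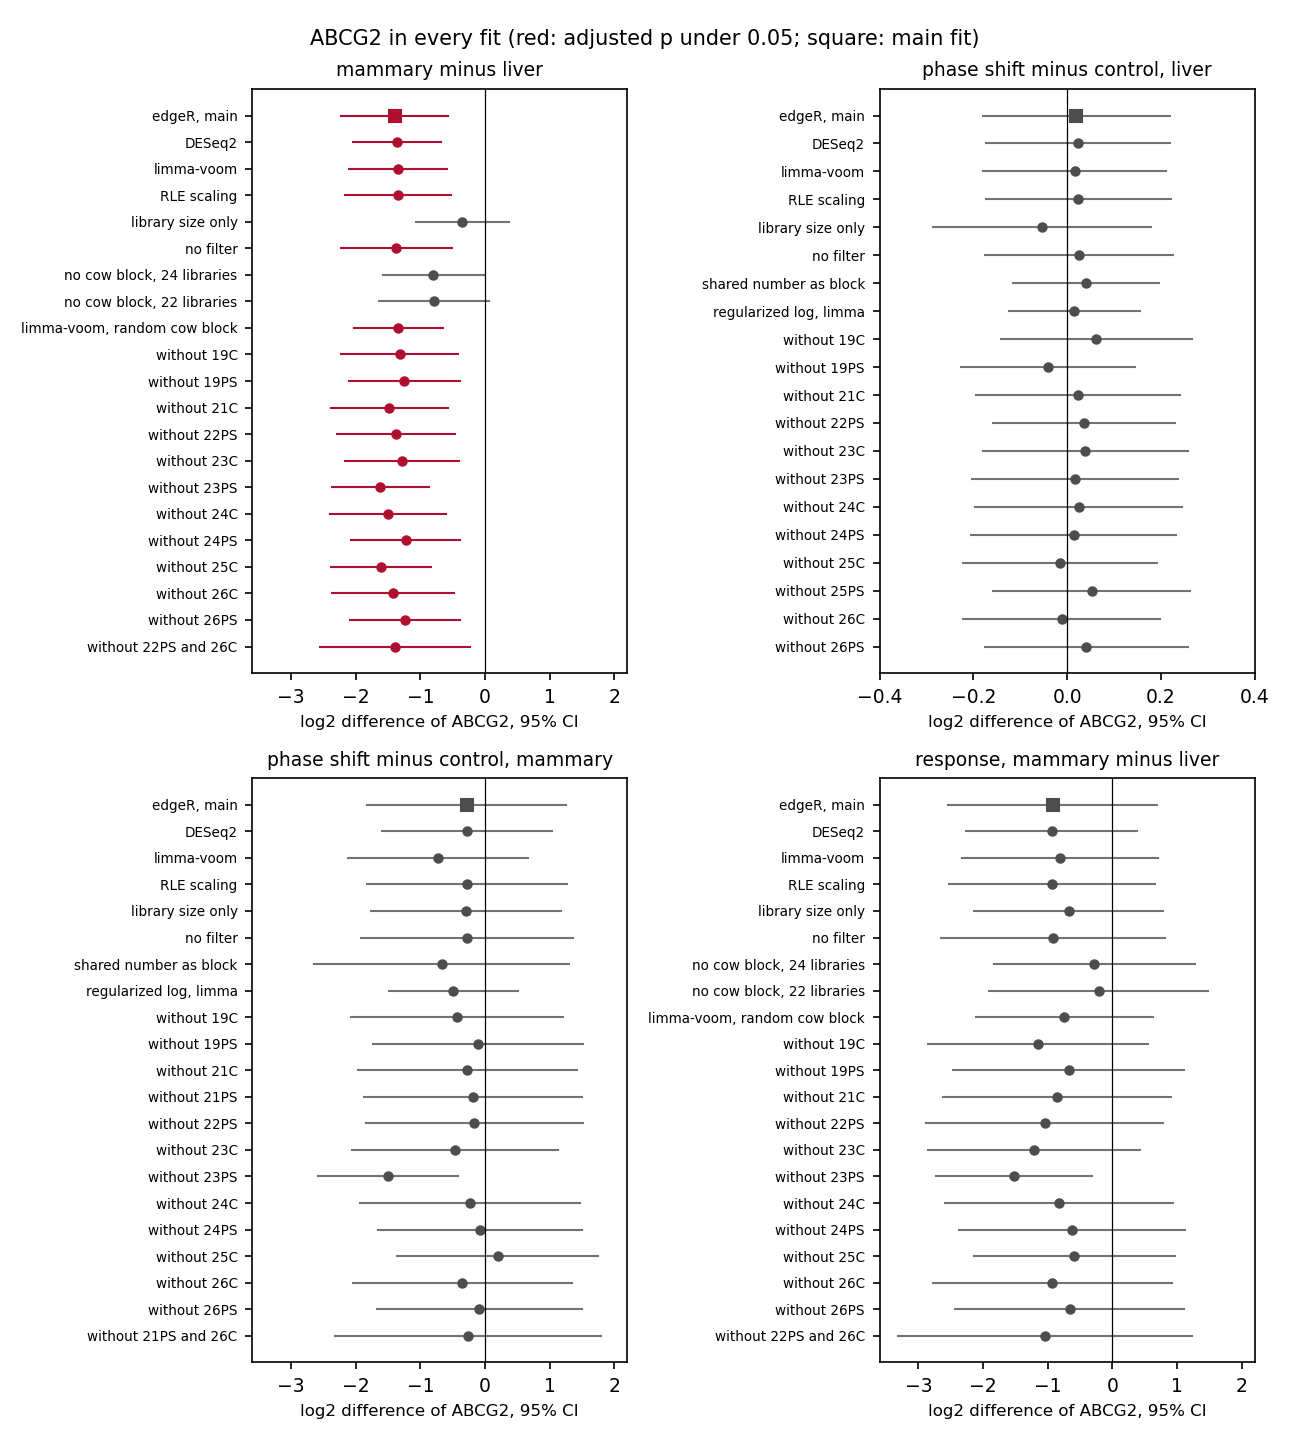
Log2 difference of ABCG2 with its 95% confidence interval in every fit of the 4 comparisons (red, adjusted p under 0.05; square, the main edgeR fit); the panel for phase shift in liver has a narrower axis. Mammary minus liver is below 0 in every fit and is past the threshold in all but the one on library size only and the 2 without a cow block, and no fit of the other comparisons is past it.

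The mammary libraries of 21PS and 26C, which stand apart on the first principal component, did not stand apart for ABCG2. They had 57.6 and 61.8 CPM, ranks 8 and 7 of 12 from the top, where the other 10 ran from 32.0 to 386 CPM with a median of 65.6. Their ratios to that median were 0.878 and 0.942. On the normalised counts the authors deposited, which divide by a size factor per library, they had 551 and 693 against a median of 459 (213 to 3155), ranks 6 and 5, with ratios of 1.201 and 1.51. Both scales put the pair inside the range of the others, while their side of the median changed with the scale. Those 10 CPM values of ABCG2 spanned 12.1-fold, against a median of 1.74-fold over 10768 genes, so a place inside their range was likely. Of the 15547 mammary genes tested, 40.6% had both libraries outside the range of the other 10 CPM values on the same side. Most genes, like ABCG2, did not. These libraries were singled out from the data, so no test was made.

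Among the 10 mammary libraries other than 21PS and 26C, the 4 of highest ABCG2 lay at 1 end of the leading axis of variation. The first principal component of those 10, on trimmed-mean scaled log2 CPM, held 31.8% of the variance. Its sign is arbitrary and was set to make the largest absolute score positive, and ABCG2 was itself among its genes. The 4 libraries of highest ABCG2, 23PS, 25C, 24C and 21C, at 139 to 386 CPM, had scores of 25.1 to 52.0. The other 6, at 32.0 to 66.8 CPM, had scores of -47.8 to -2.73. Within these 6 the order was not kept: 24PS, the lowest in ABCG2, scored -24.3, while 19PS, at 42.5 CPM, scored -47.8. The share of all genes with such a split was not counted. Each of these sets was formed after the values were seen, and the 4 hold 3 control cows and 1 phase shift cow.

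Other mammary genes varied with ABCG2 or opposite to it. Over all 12 libraries, Pearson's r of log2 CPM with ABCG2 was above 0.8 for 52 of 10767 genes (0.483%) and below -0.8 for 123 (1.14%). Over the 10 libraries without 21PS and 26C these were 234 (2.17%) and 1368 (12.7%). These points share the libraries and their totals, and r is given as a description. The mammary gene most like ABCG2 over 12 libraries was ENSBTAG00000003300, at 125 to 1330 CPM (r = 0.94 over 12 libraries, 0.96 over 10), followed by ENSBTAG00000009145, at 10.8 to 274 CPM (r = 0.93 and 0.93). The genes most opposed over 12 libraries were ENSBTAG00000005154, at 14.5 to 63.9 CPM (r = -0.97 and -0.98), and ENSBTAG00000012848, at 19.6 to 110 CPM (r = -0.94 and -0.97). Over the 10 libraries the first pair ranked 8 and 33 among the most alike, and the second pair 5 and 12 among the most opposed. Names for these IDs are not given in the deposited tables. In liver the same 4 genes had r of 0.19, 0.018, 0.65 and -0.22 with ABCG2.

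**Figure D5:**
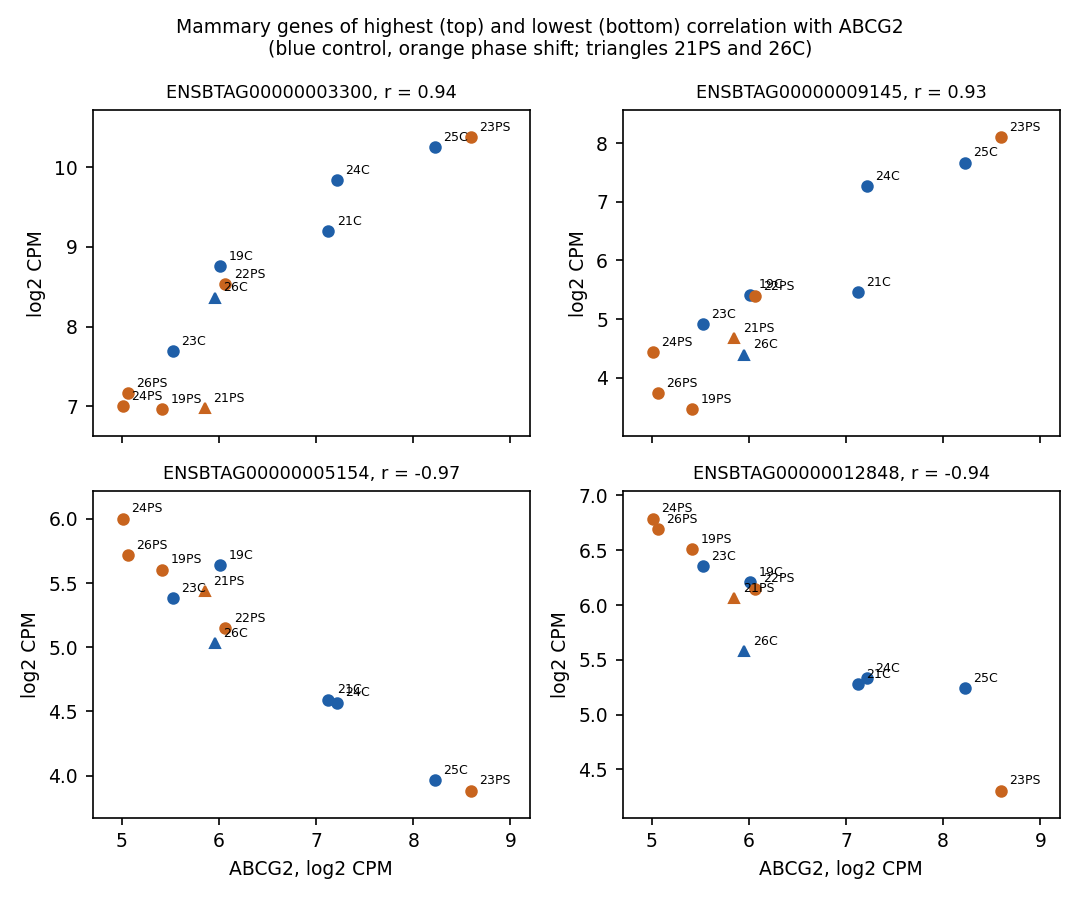
Log2 CPM of the 2 mammary genes of highest (top) and the 2 of lowest (bottom) correlation with ABCG2, against log2 CPM of ABCG2 in the 12 mammary libraries (triangles, 21PS and 26C). 23PS, 25C, 24C and 21C lie at the right of every panel, with r of 0.94, 0.93, -0.97 and -0.94.

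In liver, where ABCG2 hardly varied, r was above 0.8 for 65 of 8295 genes (0.784%) and below -0.8 for 10 (0.121%). Without 22PS these were 18 (0.217%) and 22 (0.265%). The genes most like it were ENSBTAG00000015318, at 96.1 to 130 CPM (r = 0.96 over 12 libraries, 0.93 over 11), and ENSBTAG00000003148, at 52.4 to 77.0 CPM (r = 0.94 and 0.92). The most opposed over 12 libraries were ENSBTAG00000016282, at 338 to 520 CPM (r = -0.89 and -0.82), and ENSBTAG00000010375, at 27.5 to 55.5 CPM (r = -0.87 and -0.79). Without 22PS the first pair still ranked 1 and 2, whereas the second pair ranked 17 and 27. In mammary these 4 had r of -0.0053, -0.090, -0.25 and -0.18 with ABCG2. None of the genes most like ABCG2 in 1 tissue was as close to it in the other. They were picked as the extremes of r in 1 tissue, so a weaker r in the other follows from the choice alone. No conclusion about the tissues is drawn from it.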

How the data were processed

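Biopsy RNA was sequenced in read pairs after ribosomal RNA had been removed, per the labels' protocols. The authors used Trimmomatic 0.36, STAR 2.5.2b, featureCounts of Subread 1.5.2 and DESeq2, with the build ARS-UCD1.2, per the submitters' processing notes. Annotation release and strand setting were not given in the sources used here. For each tissue the authors deposited raw read counts per Ensembl gene, a normalised signal and regularized log2 values. Tested on the files, the deposited normalised signal equals the raw count over a size factor fixed for each library.

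Raw counts entered every main test: edgeR 4.0.16 (R 4.3.3), quasi-likelihood F test with robust dispersion, TMM scaling, filterByExpr (minimum count 10, minimum total 15) and Benjamini-Hochberg adjustment over all genes tested, at 0.05. Mammary against liver and the difference in response used the 22 libraries of the 11 cows with both tissues, with the cow as a block; treatment within a tissue used 12 libraries. The pairing comes from the cow labels; same-cow deviations from group means correlated at -0.015 to 0.25 over 7495 genes. Single values were tested by exact permutation of log2 CPM (prior count 2). DESeq2 1.42.0 and limma 3.58.1 were alternatives, and the tests were checked on simulated data. In the simulation of mammary against liver, both tissues shared a profile apart from the changed genes, and cows had no effect. It therefore does not bear on the choice of scaling or of the cow block.

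ABCG2 and the lists were chosen with earlier results of these data known. The named genes were, in each tissue, those of highest and lowest Pearson r with ABCG2 among genes of at least 10 CPM. The lists of transporters, regulators, neighbours and cell type markers have symbols only; since 0 IDs matched, they were not analysed here.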

Additional observations from a re-analysis of the deposited data

Results flagged for a closer look

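The mammary library of 23PS held 386 CPM of ABCG2, where the next of the 6 phase shift cows, 22PS, held 66.8 CPM. The gap was 0.902 of the range of the group, above Dixon's 95% critical value of 0.625. Over the 6 groups of values checked this was the single sample so far from its group, and chance gives such a sample in about 1 in 20 groups. In liver the same cow had 108 CPM, inside the range of the other phase shift cows.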

How the results depend on the processing

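ABCG2 was lower in mammary than in liver in all 20 alternative fits, at log2 differences of -1.62 to -0.35 (adjusted p 0.000141 to 0.337). It lost the threshold on library size only (-0.35) and in the fits with no replicate block (-0.79 over the same 22 libraries, chosen after seeing the data, and -0.80 over 24). Leaving out each cow gave -1.62 to -1.23. The single-value permutation, -0.32 on library totals, passed with TMM scaling, at -1.36 (exact p = 0.0137), an alternative chosen after seeing the data. Phase shift in liver stayed short of the threshold in 20 fits (adjusted p 0.907 to 0.996), where the fit without 22PS is counted under 2 settings. Its sign turned on library size only (-0.053), and leaving out each library gave -0.041 to 0.063. Its mean log2 CPM difference of -0.062 turned to 0.016 on the regularized log values and to 0.0012 without 22PS. Phase shift in mammary stayed short in 20 fits (adjusted p 0.613 to 1), at -1.50 to 0.19 with each library left out. Its mean log2 CPM difference of -0.68 passed the single-value permutation without 23PS, at -1.19. The difference in response ran from -1.52 to -0.59 with each cow left out and stayed short in 20 fits. Whether the shared number of control and phase shift labels pairs the cows cannot be told from likeness. Deviations correlated above 0.1 in 1 of 5 same-numbered pairs in each tissue, but also in only 3 of 11 same-cow pairs of liver and mammary. As a replicate block the shared number gave 0.041 in liver, with 2 genes called instead of 0, and -0.67 in mammary. In liver DESeq2 called 13 genes, and edgeR without 26C called 1. Counting error of ABCG2 was at most 3.71% in liver and 7.27% in mammary.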
